A study of Mus musculus with 4 samples.

Results

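The genes described here are the receptors for the neurotransmitters glutamate, GABA, glycine and acetylcholine, as listed in mutant pools of mouse NSCLC, which are haploid cells resembling neural stem cells, with piggyBac gene trap insertions. They were chosen by symbol alone, as the genes in either table named Gria, Grin, Grik, Grid, Grm, Gabr, Gabbr, Glra, Glrb, Chrn or Chrm with their subunit suffix, and they number 42 of the 5614 genes listed. In a RefSeq gene table (GRCm38.p6) the same names belong to 73 protein-coding genes, so 31 receptor genes were listed in neither library. Both libraries came from cells of 129Sv background, differentiated from haploid embryonic stem cells with FGF2, EGF, LDN193189, SB431542 and a ROCK inhibitor (Y-27632, Thiazovivin or both; which one each library received is not given in the sources used here). Both were transfected with a piggyBac gene trapping plasmid and a codon optimized PB transposase and selected with G418. The labels name no treatment that separates library 1 from library 2 and no untreated control.

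Each library is 1 table in which 2 samples are merged. No value therefore has a replicate, and no test between libraries was made. A table gives, per gene, nonredundant reads and redundant reads of the junctions between transposon and genome. Library 1 held 55442 nonredundant reads over 4184 genes and library 2 held 48750 over 3168 genes, and the 10 leading genes took 16.2% and 42.3% of them. A gene is called listed here when it has 1 or more nonredundant reads. Reads are PCR products without molecular identifiers, and the meaning of nonredundant is not stated. Neither count can therefore be taken as a number of insertions or of cells. Every interval below covers counting error only. A listing on 1 read is weak evidence of a hit: 8 of 78 Y-linked genes were listed in at least 1 library, with at most 2 nonredundant reads, and haploid embryonic stem cells are known to carry an X and no Y chromosome. The reads are of genomic DNA and not of RNA, so neither the labelled cell type nor the expression of a receptor can be read from them.

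Glutamate is the main excitatory transmitter of the brain, and GABA and glycine are the main inhibitory ones. Each acts on ion channels built of several subunits that open when the transmitter binds, and glutamate, GABA and acetylcholine also act on slower receptors that signal through G proteins. Neural progenitors are known to respond to glutamate and GABA before synapses form.

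The piggyBac transposon is known to insert at the tetranucleotide TTAA, which reads alike on both strands and cannot overlap itself. The tables hold no positions, so RefSeq promoter windows (GRCm38.p6, from 250 bases before to 50 after a transcription start, printed 5′ to 3′) are shown only to give the sequence context of named genes, with each TTAA in capitals. They belong to Gabrg3 and Grm7, the pair with most reads among the receptor genes that have a window in the table used, and to Glra4, whose reads were the most unequal between the 2 counts.
Gabrg3, chr7:57387166-57387465, minus strand: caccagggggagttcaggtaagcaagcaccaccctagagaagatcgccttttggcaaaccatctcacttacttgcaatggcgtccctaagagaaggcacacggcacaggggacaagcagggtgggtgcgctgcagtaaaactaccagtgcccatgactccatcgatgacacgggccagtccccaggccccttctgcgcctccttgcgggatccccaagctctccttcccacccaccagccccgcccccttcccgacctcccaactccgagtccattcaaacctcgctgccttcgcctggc
Grm7, chr6:110645262-110645561, plus strand: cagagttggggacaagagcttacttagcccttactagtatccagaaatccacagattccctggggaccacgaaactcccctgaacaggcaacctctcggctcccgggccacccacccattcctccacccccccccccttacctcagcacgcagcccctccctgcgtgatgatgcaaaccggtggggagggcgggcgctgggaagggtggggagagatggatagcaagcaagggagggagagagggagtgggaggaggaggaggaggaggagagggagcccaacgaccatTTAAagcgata
Glra4, chrX:136779672-136779971, minus strand: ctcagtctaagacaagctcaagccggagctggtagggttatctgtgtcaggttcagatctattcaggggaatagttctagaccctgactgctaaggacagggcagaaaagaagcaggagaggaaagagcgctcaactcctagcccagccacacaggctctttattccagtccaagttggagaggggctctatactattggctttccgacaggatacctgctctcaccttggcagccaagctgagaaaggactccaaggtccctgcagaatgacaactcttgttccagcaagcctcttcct
The Grm7 window holds 1 TTAA, and the Gabrg3 and Glra4 windows hold 0. Of 60 such windows from 52 receptor genes, 26 (43.3%) hold at least 1 TTAA, beside 52.4% of all 32851 windows of the same length. The share was 48.5% over 33 windows of listed receptor genes and 37.0% over 27 windows of unlisted ones. Whether any read came from these windows is not known from the tables.

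Library 1 listed 35 of the 73 receptor genes (47.9%, exact 95% interval 36.1 to 60.0), beside 19.9% of all 21035 genes with curated coding transcripts. Library 2 listed 32 (43.8%, 32.2 to 55.9), beside 15.0% of all genes. In either library 42 receptor genes were listed (57.5%), beside 26.6% of all genes, and 25 were listed in both (34.2%), beside 8.25%. Most receptor genes had few reads. The median listed receptor gene had 2 nonredundant reads in each library, beside 1 for all listed genes, and 14 of the 35 in library 1 and 15 of the 32 in library 2 had exactly 1. At 10 or more reads there were 6 receptor genes in library 1 (8.22% of the 73), beside 2.37% of all genes, and 4 in library 2 (5.48%), beside 1.40%. No receptor gene reached 10 reads in both, and 0.204% of all genes did.

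**Figure D1:**
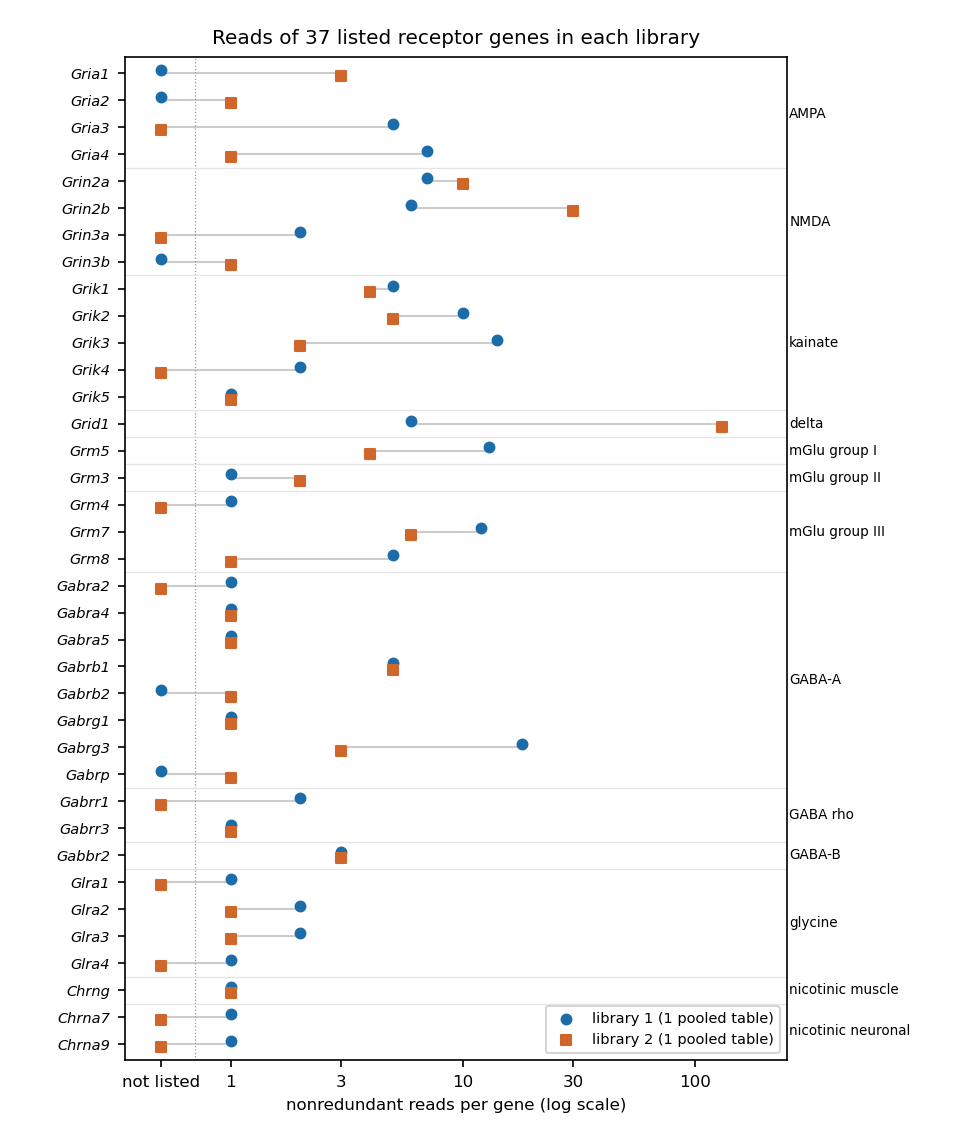
Nonredundant reads (log scale) of 37 listed receptor genes in library 1 (circles) and library 2 (squares), each 1 pooled table without error bars, ordered by receptor type; points left of the dotted line mark genes not listed in that library. Grid1 in library 2 stands apart with 131 reads, and the next value is 30, for Grin2b in library 2.

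Receptor genes are long, and long genes are listed more often throughout these tables. When all genes were ordered by RefSeq length and cut into 10 equal classes, 31 of the 73 receptor genes (42.5%) fell in the class of longest genes. Of these 31, 28 were listed in either library (90.3%), beside 81.7% of all genes of that class. Library 1 listed 24 (77.4%, beside 71.6%) and library 2 listed 23 (74.2%, beside 58.3%). The 19 listed in both made up 79.2% of those in library 1 and 82.6% of those in library 2, beside 67.4% and 82.8% for all genes of the class. Within the class of longest genes the receptor shares thus lay much closer to those of all genes than they did over all lengths. All 10 receptor genes with 10 or more reads in a library belong to this class, where they are 32.3% of the 31, beside 19.2% of all its genes. In classes 8 and 9, 9 of 13 receptor genes were listed (69.2%, beside 49.5%), and in classes 1 to 7, 5 of 29 (17.2%, beside 12.2%). These 5 shorter genes were Grin3b, Chrng, Gabrr1, Gabrp and Glra4, none with more than 2 nonredundant reads in a library.

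**Figure D2:**
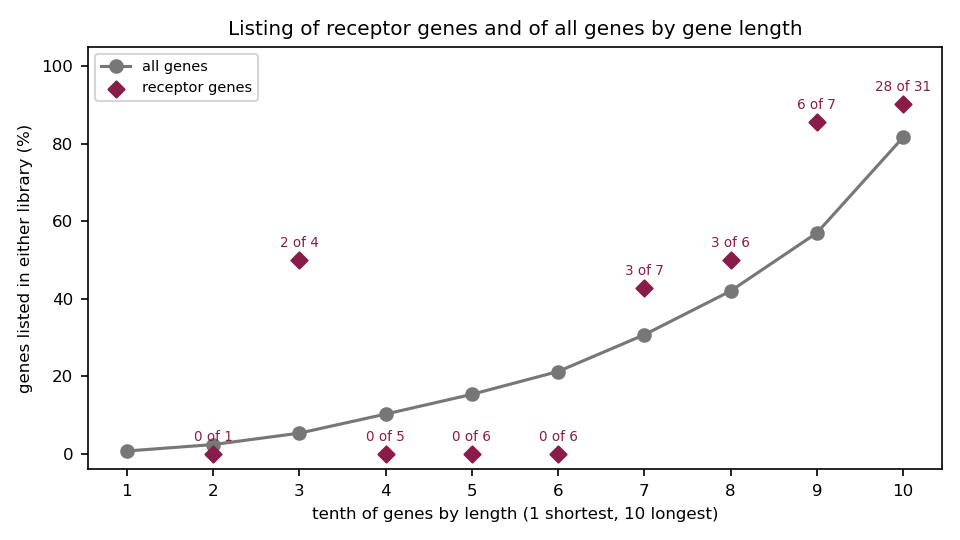
Percent of genes listed in either library (vertical axis) in each of 10 equal classes of gene length (horizontal axis, 10 the longest), for all genes (grey line) and for receptor genes (diamonds, with the number listed of the number in the class; class 1 holds none). In the longest class 28 of 31 receptor genes were listed, and in classes 4 to 6 none of 5, 6 and 6.

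Glutamate receptors held most of the reads. Of 26 genes, 21 were listed in either library, beside 26.6% of all genes of any length. Library 1 listed 18 with 124 nonredundant reads and library 2 listed 17 with 211. The median length of the 26 was 298 kb, and long genes were listed more often. Of the 18 genes for glutamate-gated channels 15 were listed, and of the 8 for G-protein coupled glutamate receptors 6. The channel genes took 0.133% of library 1 and 0.402% of library 2, and the metabotropic genes took 0.0902% and 0.0308%. The order of the channel genes held with the 10 leading genes of each library left out of the totals (0.159% and 0.697%) and with redundant reads (0.0276% and 0.145%), but its size rested on Grid1. Without Grid1 the channel genes took 0.123% of library 1 and 0.133% of library 2, and 0.0265% and 0.0269% of the redundant reads. That of the metabotropic genes held in the first case (0.108% and 0.0533%) but turned with redundant reads (0.0328% and 0.0345%).

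The delta receptors are built like glutamate channels but are known as synaptic organisers that bridge to presynaptic neurexins through cerebellins. Grid1 had 6 nonredundant reads in library 1 (exact Poisson 95% interval 2.20 to 13.1) and 131 in library 2 (110 to 155). It ranked number 66 of the 3168 genes of library 2 and held 53.3% of all receptor reads there. Scaled to the library totals, Grid1 was 24.8-fold higher in library 2 (exact conditional binomial interval 11.1 to 68.9; such intervals are not adjusted for the number of genes). Its redundant reads were 9 and 1529.

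NMDA receptors are channels that need glutamate together with glycine or D-serine. Grin2b, a glutamate-binding subunit prominent in early development, had 6 nonredundant reads in library 1 and 30 in library 2, and was 5.69-fold higher in library 2 after scaling (2.33 to 16.7). Its paralogue Grin2a had 7 and 10 reads, a ratio of library 2 over library 1 of 1.62 whose interval (0.558 to 5.03) includes 1. Among the genes of glycine-binding subunits, Grin3a had 2 reads in library 1 and Grin3b had 1 in library 2. Grin1, the subunit every NMDA receptor needs, and Grin2c and Grin2d were in neither table. None of these 3 unlisted genes is in the class of longest genes.

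AMPA receptors carry fast excitatory transmission, and all 4 of their subunit genes were listed with few reads. All 4 are in the class of longest genes, where 81.7% of all genes were listed. Gria4 had 7 nonredundant reads in library 1 and 1 in library 2. Gria3, which is X-linked, had 5 in library 1 and none in library 2. Gria1 with 3 reads and Gria2, whose edited subunit limits calcium entry, with 1 read were listed in library 2 alone. The libraries thus overlapped in 1 of the 4 AMPA genes, beside 48.3% of all genes of the longest class listed in both. At such counts a missing gene differs little from a listed one.

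All 5 kainate receptor genes were listed. All but Grik5 are in the class of longest genes, where 81.7% of all genes were listed. Grik3 had 14 nonredundant reads in library 1 and 2 in library 2, and was 6.16-fold higher in library 1 after scaling (1.41 to 55.8). Grik2 had 10 and 5 reads, with a ratio of library 1 over library 2 of 1.76 (0.548 to 6.56), and Grik1 had 5 and 4. These 3 genes encode the subunits that can form channels on their own. The high-affinity partner subunits had fewer reads, with 2 in library 1 for Grik4 and 1 in each library for Grik5.

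The metabotropic receptors couple to G proteins, those of group I to Gq and those of groups II and III to Gi. Grm5, a group I receptor, had 13 and 4 nonredundant reads, a ratio of library 1 over library 2 of 2.86 whose interval (0.883 to 12) includes 1. In group II, Grm3 had 1 and 2 reads and Grm2 was not listed. In group III, the presynaptic receptor Grm7 had 12 and 6 reads, a ratio of library 1 over library 2 of 1.76 (0.611 to 5.71). Grm8 had 5 and 1, Grm4 had 1 in library 1, and Grm6, which serves ON bipolar cells of the retina, was in neither table. Grm3, Grm5, Grm7 and Grm8 are all in the class of longest genes, and the unlisted Grm2 and Grm6 are in classes 4 and 5.

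**Figure D3:**
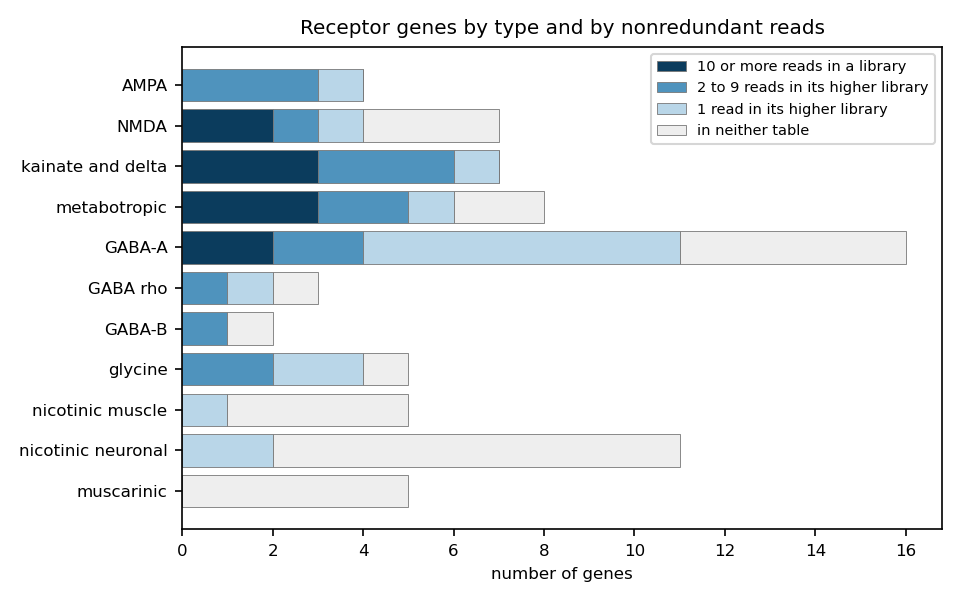
Number of receptor genes (horizontal axis) of each type (vertical axis, with kainate and delta receptors in 1 bar), with bar segments for genes with 10 or more nonredundant reads in a library, 2 to 9 or 1 read in their higher library, and genes in neither table. All AMPA and kainate genes were listed, and all but Grik5 are in the class of longest genes, where 81.7% of all genes were listed. None of the 5 muscarinic genes was listed, beside 26.6% of all genes of any length.

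GABA receptor genes were listed for 14 of 21 members, beside 26.6% of all genes of any length. The median length of the 21 genes was 88.6 kb, and long genes were listed more often. The GABA receptor genes had 34 nonredundant reads in library 1 and 32 in library 2. GABA-A receptors are chloride channels of 5 subunits, mostly drawn from the alpha, beta and gamma classes, and 11 of their 16 genes were listed. Gabrg3, a gamma subunit gene, had 18 reads in library 1 and 3 in library 2, and was 5.28-fold higher in library 1 after scaling (1.54 to 28.0). Gabrb1, a beta subunit gene, had 5 reads in each library. Their redundant reads were few, 45 and 4 for Gabrg3 and 6 and 7 for Gabrb1.

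Other listed GABA-A genes had 1 read. Gabra4, Gabra5 and Gabrg1 had 1 in each library, Gabra2 had 1 in library 1, and Gabrb2 (1 read) and the pi subunit gene Gabrp (1) were listed in library 2 alone. Gabra3, Gabra6, Gabrd, Gabre and Gabrq were in neither table. Among the rho subunits, which form channels found mainly in the retina, Gabrr1 had 2 reads in library 1, Gabrr3 had 1 in each library, and Gabrr2 was not listed. The GABA-B receptor is an obligate pair of G-protein coupled subunits. Gabbr2, the subunit that engages the G protein, had 3 reads in each library, and Gabbr1, which binds GABA, was not listed.

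GABA-A subunit genes sit in clusters. On chromosome 5, all 4 genes of the cluster Gabrg1, Gabra2, Gabra4 and Gabrb1 were listed, with 8 reads in library 1 and 7 in library 2, mostly in Gabrb1. On the X chromosome, Gabre, Gabra3 and Gabrq were all without reads, and of the 6 X-linked receptor genes Gria3, Glra2 and Glra4 were listed. The acetylcholine receptor clusters of Chrna5, Chrna3 and Chrnb4 on chromosome 9 and of Chrnb3 and Chrna6 on chromosome 8 also had no reads. The counts are too low to rank these clusters against one another.

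Glycine receptors are inhibitory chloride channels of the spinal cord and brainstem. Of their 5 genes 4 were listed, beside 26.6% of all genes of any length, with 6 nonredundant reads in library 1 and 2 in library 2. Most are long: Glra2 and Glra3 are in length class 10, where 81.7% of all genes were listed. Glra1 and Glrb are in class 9, where 57.0% were. Glra2 and Glra3 had 2 and 1 reads each, and Glra1 and Glra4 had 1 in library 1. Glrb, the subunit that anchors the receptor to gephyrin, was in neither table.

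The single nonredundant read of Glra4 stood for 3983 redundant reads. This was the highest value among the 2246 genes of library 1 with 1 nonredundant read, whose median was 1 redundant read. By redundant reads Glra4 ranked number 43 of the 4184 genes of library 1, and it alone made up 86.2% of the redundant reads of all receptor genes there. Most receptor genes showed no such gap. The counts were equal in 16 of 35 receptor genes in library 1 (45.7%, beside 56.4% of all listed genes) and in 15 of 32 in library 2 (46.9%, beside 56.2%).

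**Figure D4:**
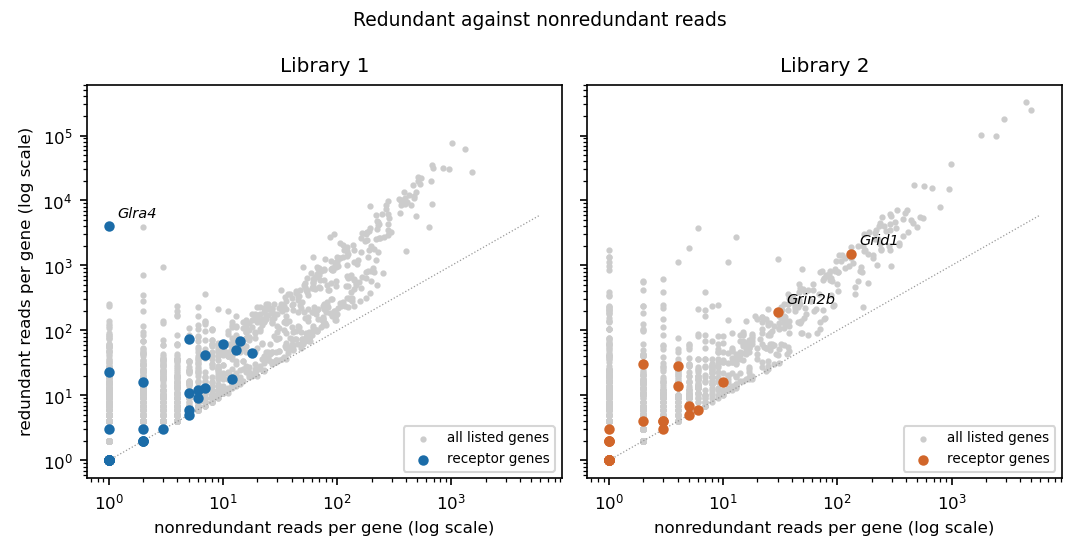
Redundant against nonredundant reads per gene (both axes log scale) in library 1 (left) and library 2 (right), for all listed genes (grey) and 37 receptor genes (coloured, where listed), with those of 100 or more redundant reads named; the dotted line marks equal counts. Glra4 lies at 1 nonredundant and 3983 redundant reads.

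Acetylcholine receptor genes had few reads in both tables. Of 16 nicotinic channel genes 3 were listed (18.8%, beside 26.6% of all genes), each with 1 nonredundant read per library in which it appeared. These were Chrng, the fetal muscle subunit, in both libraries (23 and 1 redundant reads), and Chrna7 and Chrna9 in library 1. None of the 5 muscarinic genes, Chrm1 to Chrm5, was listed, beside 26.6% of all genes. By length, these were 0 of 2 in classes 1 to 7, beside 12.2%, and 0 of 3 in classes 8 to 10, beside 60.2%. The nicotinic genes are mostly short, with 14 of the 16 in length classes 1 to 7. Of these 14 genes 1 was listed (7.14%), beside 12.2% of all genes of those classes. In classes 8 to 10, 2 of 2 nicotinic genes were listed, beside 60.2% of all genes there. Chrna7 is the only nicotinic gene in the class of longest genes. Chrm2 and Chrm3 are in that class, and with Gabra3 they were the 3 of its 31 receptor genes that neither library listed, beside 18.3% of all its genes. A difference between acetylcholine and other receptors was not tested.

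As a sum, receptor genes held 167 nonredundant reads of library 1 (0.301%, exact binomial interval 0.257 to 0.350) and 246 of library 2 (0.505%, 0.444 to 0.572). The order of these shares rested on Grid1, without which library 2 stood at 0.236%. It also turned with redundant reads, which gave 0.526% and 0.182%. Without Glra4 the redundant share of library 1 was 0.0727%, and without Grid1 that of library 2 was 0.0646%. The nonredundant share of library 1 rested on no such gene. No receptor gene there had more reads than Gabrg3, which held 10.8% of the receptor reads, and the share without Gabrg3 was 0.269%. The pooled shares therefore give no direction for the receptors as a group.

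Among genes with 10 or more summed nonredundant reads, a gene was said to lean to a library when at least 90% of its scaled reads lay there. Of 12 such receptor genes, 0 leaned to library 1, beside 47.6% of 822 genes, and 2 leaned to library 2, Grid1 among them, beside 27.6%. The other 10 had reads in both libraries below that limit. Receptor genes were long and, apart from Grid1, had 10 to 36 summed reads. Among all genes of the longest class with 10 to 40 summed reads, 23.0% of 261 leaned to library 1 and 16.9% to library 2, beside 0 and 1 of 11 receptor genes. No replicate supports any of these leans. The count for library 1 was 3 at a limit of 80%, and 8 with redundant reads, where the minimum of 10 applied to redundant reads. No share of all genes is given at these other settings, so these counts say nothing particular to receptor genes.

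Genes that assemble, anchor and supply these receptors were described from 4 lists with 81 members. Library 1 listed 30 of them (37.0%, beside 19.9% of all genes), library 2 listed 22 (27.2%, beside 15.0%), and 36 (44.4%) were listed in either, beside 26.6%. In the class of longest genes 18 of 21 were listed (85.7%), beside 81.7% of all genes of that class. Of the 6 partner genes with 10 or more summed reads, 4 leaned to library 1, beside 47.6% of all such genes, and 0 to library 2, beside 27.6%.

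Partners of inhibitory receptors held 274 of the 490 partner reads in library 1 but 12 of 57 in library 2, where the glutamate receptor list had 31. The first count rested on Gphn, without which the inhibitory list had 84 reads in library 1, beside 201 for the glutamate list. Shank2 alone held 121 of those 201 reads. The order of these 2 lists in library 1 thus rested on single genes. Of 13 scaffold and assembly genes of GABA and glycine receptors 6 were listed, beside 26.6% of all genes of any length. All 6 are in the class of longest genes, where 81.7% of all genes were listed. They were led by Gphn, which encodes gephyrin, with 190 nonredundant reads in library 1 and 1 in library 2. Kctd16, an auxiliary subunit of GABA-B receptors, had 67 and 3 reads, Plcl1 had 13 and 1, and Plcl2 had 2 in library 2. The reads of Gphn, Kctd16 and Plcl1 lay almost wholly in library 1.

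Of 32 auxiliary and scaffold genes of glutamate receptors 20 were listed, beside 26.6% of all genes of any length. Their median length was 75.6 kb, and long genes were listed more often. Shank2, a scaffold of the postsynaptic density, had 121 reads in library 1 and none in library 2. Grip1, which binds AMPA receptors, had 38 and 5 reads, Dlg2 had 13 and 9, Dlg1 had 2 and 6, and Dlgap2 had 6 and 1. Of 10 genes for assembly and clustering of acetylcholine receptors 3 were listed, near the 26.6% of all genes. These were Lrp4 and Musk with 2 reads in library 1 and Ric3 with 1 in each library. A share near that of all genes was also seen for synthesis, packaging, uptake and breakdown of the transmitters, with 7 of 26 genes listed. Among them were the glutamate transporter genes Slc1a2 (1 and 7 reads) and Slc1a1 (6 and 1), the GABA transporter gene Slc6a11 (3 reads in library 2) and the vesicular glutamate transporter gene Slc17a6 (2 reads in library 2).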

How the data were processed

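Genomic DNA from 4 samples was measured by splinkerette PCR and HiSeq sequencing, per the labels' protocols, and the 2 deposited tables each pool 2 samples. The values are raw read counts per gene by the authors, nonredundant and redundant, with no normalization, per the file headers and values. CASAVA, BWA and the build mm9 appear in the submitters' processing notes. Read filters, gene assignment and the meaning of nonredundant are not stated there.

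Symbols were matched by transcript, then by symbol or synonym, to RefSeq genes of GRCm38.p6 (4182 of 4184 and 3167 of 3168 matched), whose lengths served only to order genes. Scaled reads are nonredundant reads over the library total. Intervals are exact 95% ones: Clopper-Pearson, Poisson, or conditional binomial for ratios (scipy 1.17.1, pandas 2.3.3). Counting and lean rules were tested on simulated data. With 1 pooled table per library no test was made.

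A few genes are not reported here by name and remain in the counts. The other listed receptor genes are named, in full where one has 10 or more reads in a library or leads its type; of each partner list up to 5 genes with most summed reads are named. The members and lists were chosen with earlier results of these data known. Alternatives were minima of 2 or 10 reads, redundant reads, totals without the 10 leading genes, sums without a leading gene, a lean limit of 80%, and a protein-coding background.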

Additional observations from a re-analysis of the deposited data

How the results depend on the processing

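The number of listed receptor genes fell with the read minimum, as did the share of all genes. At 2 or more nonredundant reads it was 21 in library 1 (28.8%), 17 in library 2 (23.3%), 13 in both (17.8%) and 25 in either (34.2%). The shares of all genes were 9.19%, 6.07%, 3.15% and 12.1%. At 10 or more reads the receptor genes numbered 6, 4, 0 and 10, beside 2.37%, 1.40%, 0.204% and 3.56% of all genes. At 2 or more redundant reads they numbered 21 in library 2 (28.8%, beside 8.40% of all genes) and 15 in both (20.5%, beside 4.21%). Of the 81 partner genes, 21 were listed in either library at 2 or more reads, beside 12.1% of all genes. At 10 or more reads 6 were, beside 3.56%. The receptor share of library 1 was 0.526% with redundant reads and 0.359% of a total without the 10 leading genes. That of library 2 was 0.182% and 0.874%, and 0.236% without Grid1. The redundant share was 0.0727% of library 1 without Glra4 and 0.0646% of library 2 without Grid1; leaving out these genes, or Gphn among the partners, was chosen after seeing the data. Receptor genes leaning to library 1 numbered 8 with redundant reads and 3 at a limit of 80%, with no share of all genes given at these settings. Grid1, Grin2b, Gabrg3, Grik3, Grik2, Grm5 and Grm7 kept their higher library under both other scalings. Some genes did not, Grin2a and Gabrb1 among them. With redundant reads the share of Grin2a in library 1 went from 38.1% to 54.6%, and that of Gabrb1 from 46.8% to 55.9%. The cause of these differences was not tested. No paired analysis was possible because each table pools its samples, and for the same reason no sample could be left out. With most genes at 1 or 2 reads, a gene missing from a table cannot be told apart from one hit at low depth.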
